A study of Mus musculus with 2 samples.

Results

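The ionotropic and metabotropic receptors for glutamate, GABA and glycine are encoded by families of subunit genes, and 53 protein-coding genes of GENCODE mouse release M21 were chosen from them by symbol. They comprise 18 genes of ionotropic glutamate receptors, 8 of metabotropic glutamate receptors, 19 of GABA-A receptors, 2 of the GABA-B receptor and 5 of glycine receptors, out of 21911 protein-coding genes in all. The symbol pattern also took in Grid2ip, which encodes delphilin, a scaffold protein that binds a delta receptor and is no receptor itself. It is kept among the 53 and named where it matters.

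DNase-seq was run on the immortalized line MN1, which the labels assign to mouse strain B6NCrl. DNase I cuts accessible DNA more often than its surroundings, and the called sites are listed as peaks and as wider hotspots. The series holds 1 group with 2 biological replicates, and the cells of each had received methyltrienolone at 10 nM. Methyltrienolone is a synthetic androgen. No untreated library was analysed here, and no response to it can be read from the values. The lists held 189648 distinct peaks in replicate 1 and 170745 in replicate 2 on the autosomes, X and Y. The depth behind the lists is unknown, since they give no read numbers. The labels name no tissue. Of the markers examined, 14 of 15 pan-neuronal genes had a promoter peak shared by the replicates (95% Wilson interval 70.2% to 98.8%). So did 1 of 9 astrocyte and oligodendrocyte genes (1.99% to 43.5%). None was found at 6 skeletal muscle genes or at 6 blood genes (0 of 6 each, upper 95% Wilson bound 39.0%). Over all protein-coding genes the share was 59.5%.

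These receptors act as assemblies. AMPA, kainate and NMDA receptors are tetramers of glutamate-gated subunits, GABA-A and glycine receptors are pentamers of anion channel subunits, and the GABA-B receptor is a pair of unlike subunits coupled to G proteins. Which subunits a neuron makes sets the kinetics, calcium entry and drug sensitivity of its synapses, and many of these genes are known targets of REST, a repressor that binds a site called RE1.

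The sequences of 4 promoters introduce the contrast on which the values below turn. They are RefSeq windows from 250 bases before to 50 after a start, on build GRCm38.p6, the assembly of mm10, written 5′ to 3′ on the strand of the gene. Capitals mark the bases that lay in a called peak of at least 1 replicate. Of the 53 genes, 37 had such a window. Gabbr1, Grin1 and Gria2 show where peaks lay at open promoters, and Grik3 shows a promoter rich in CpG that had no peak.
Gabbr1 (chr17:37045716-37046015, + strand): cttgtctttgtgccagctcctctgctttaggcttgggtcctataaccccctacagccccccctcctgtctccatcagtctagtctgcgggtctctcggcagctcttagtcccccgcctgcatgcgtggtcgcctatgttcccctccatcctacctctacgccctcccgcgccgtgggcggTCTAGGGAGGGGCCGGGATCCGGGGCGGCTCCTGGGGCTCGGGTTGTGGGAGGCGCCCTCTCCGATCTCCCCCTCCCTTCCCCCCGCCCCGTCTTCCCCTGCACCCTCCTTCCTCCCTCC
Grin1 (chr2:25319138-25319437, − strand): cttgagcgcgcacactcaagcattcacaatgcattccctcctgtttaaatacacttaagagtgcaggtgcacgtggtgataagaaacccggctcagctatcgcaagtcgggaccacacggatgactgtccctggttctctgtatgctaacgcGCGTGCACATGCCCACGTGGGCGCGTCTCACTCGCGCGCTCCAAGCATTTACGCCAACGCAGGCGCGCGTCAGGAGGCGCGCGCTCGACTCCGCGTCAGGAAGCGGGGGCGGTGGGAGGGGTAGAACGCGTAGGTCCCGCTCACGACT
Gria2 (chr3:80802786-80803085, − strand): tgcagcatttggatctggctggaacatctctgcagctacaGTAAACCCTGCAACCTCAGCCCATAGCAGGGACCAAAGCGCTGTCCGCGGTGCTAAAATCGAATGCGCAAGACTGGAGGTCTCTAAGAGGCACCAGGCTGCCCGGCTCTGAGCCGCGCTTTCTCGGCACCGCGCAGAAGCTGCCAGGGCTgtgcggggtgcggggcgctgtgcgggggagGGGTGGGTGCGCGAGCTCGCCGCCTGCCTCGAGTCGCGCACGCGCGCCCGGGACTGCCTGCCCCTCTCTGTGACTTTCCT
Grik3 (chr4:125490446-125490745, + strand): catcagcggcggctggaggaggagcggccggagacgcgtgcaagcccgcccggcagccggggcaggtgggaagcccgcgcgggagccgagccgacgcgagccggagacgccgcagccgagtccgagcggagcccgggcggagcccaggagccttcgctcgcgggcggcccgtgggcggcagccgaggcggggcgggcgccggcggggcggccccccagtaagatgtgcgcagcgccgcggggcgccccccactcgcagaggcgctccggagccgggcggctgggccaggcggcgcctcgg
In the Gabbr1 window 100 bases lay in peaks of both replicates, and in the Grin1 window 148 bases did. In the Gria2 window 150 bases lay in a peak of replicate 1 and 80 in a peak of replicate 2, with 0 in common. The Grik3 window held 50 CpG dinucleotides, more than the 18, 33 and 26 of the Gabbr1, Grin1 and Gria2 windows, and no base of it lay in a peak.

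Most of the receptor genes had no open promoter in these cells. A promoter was called open where a region shared by the replicates (peaks overlapping by at least 1 bp) came within 1 kb of an annotated transcription start site (TSS). Of the 53 genes 12 were open, 22.6% (95% Wilson interval 13.5% to 35.5%), against 59.5% of all protein-coding genes. Without Grid2ip it was 11 of 52, or 21.2%. With a window of 500 bp 7 of the 53 were open, against 57.7% of all genes. No peak lay at the promoter in either replicate for 39 genes, and none of these 39 had a hotspot there. Grm2 had promoter peaks in both lists that did not overlap, and Grik4 had them in replicate 2 only. The open members also had low scores for promoters. Each peak carries the authors' score, a whole number from 1 to 150 whose meaning is not given, used here only to rank within a list. The lower of a gene's 2 percentiles among the promoter scores of each replicate had a median of 16.1 over the open members, against 46.7 over all open protein-coding genes.

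**Figure D1:**
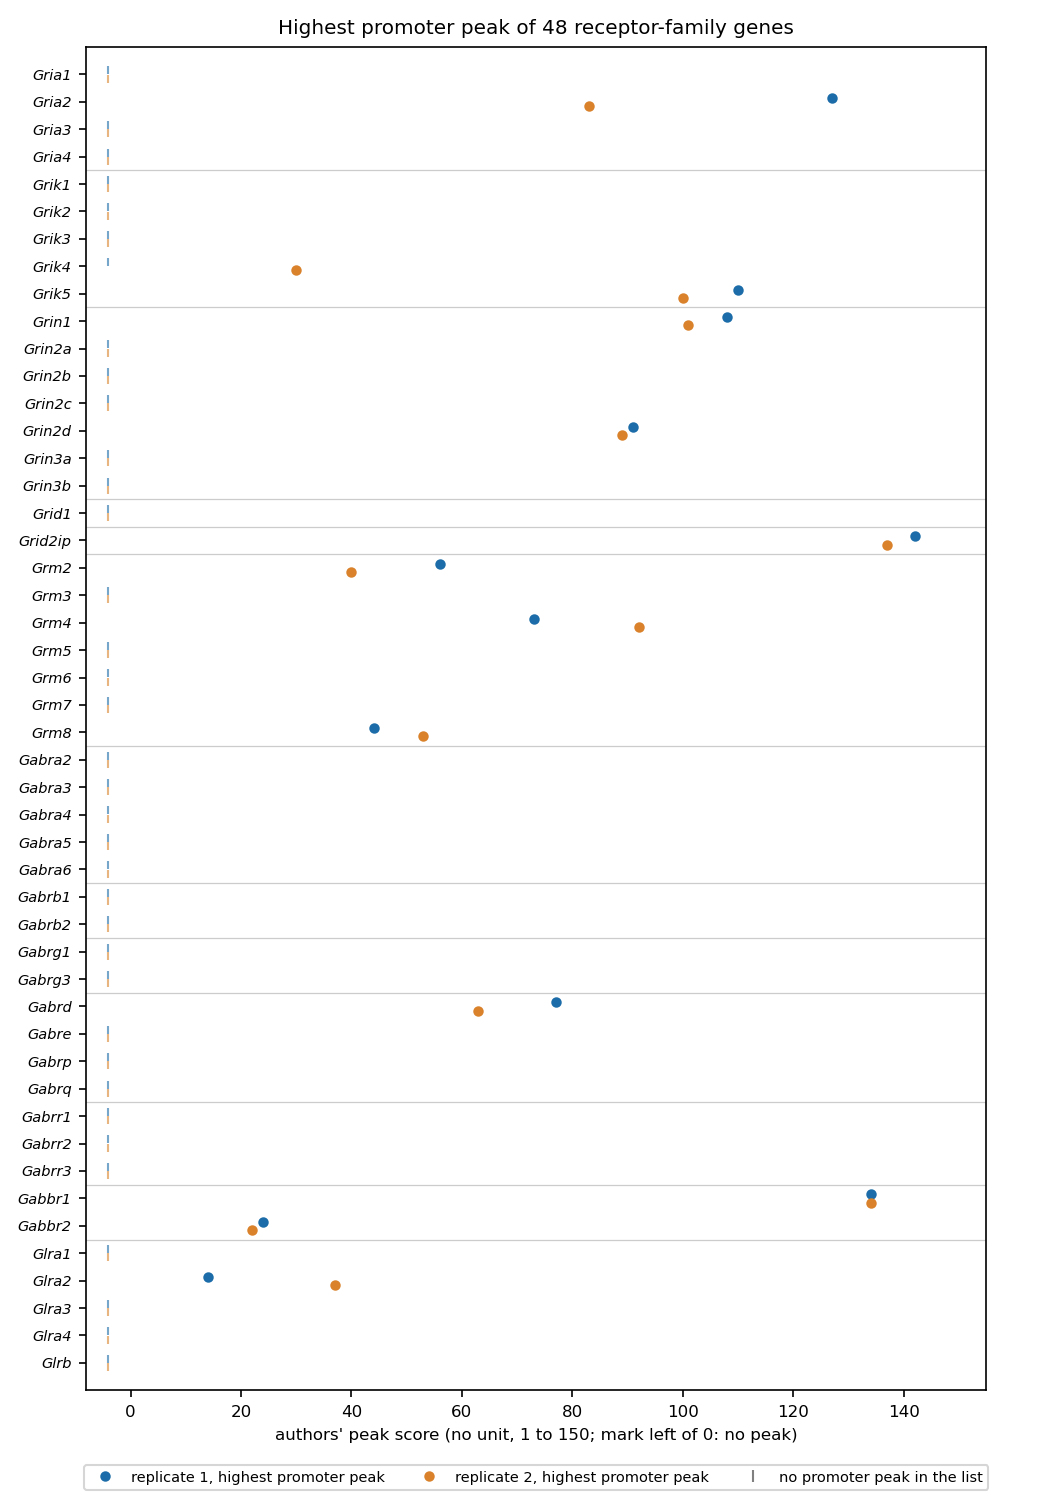
Highest promoter peak of 48 of the 53 genes, by receptor family. The horizontal axis is the authors' peak score (no unit), blue points are replicate 1, orange points replicate 2, and marks left of 0 stand for no promoter peak. Scores of the open genes run from 14 at Glra2 to 142 at Grid2ip, and most of the 48 genes have no point.

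Among AMPA receptor genes, only Gria2 was open by this rule. Its subunit makes AMPA receptors impermeable to calcium. The highest Gria2 peak scored 127 in replicate 1 and 83 in replicate 2, and the peaks lay at different places, centred at −135 bp from the gene's 5′ end in replicate 1 and at 45 bp in replicate 2. The widest promoter hotspot spanned 1711 bp in replicate 1 and 1136 bp in replicate 2. The shared region nearest to its coding TSS was centred 1115 bp away, and with a window of 500 bp Gria2 was not open. Neither list had a promoter peak for Gria1, Gria3 or Gria4.

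Of the 5 kainate receptor genes only Grik5 was open. Grik5 encodes a subunit of high glutamate affinity that forms channels only together with subunits of the Grik1, Grik2 and Grik3 type, and none of those 3 genes was open. Its highest promoter peak scored 110 in replicate 1 and 100 in replicate 2 and lay in an exon 13.4 kb inside the gene, near the start of a transcript annotated as a retained intron. The highest peaks beside the 5′ end scored 92 in replicate 1 and 79 in replicate 2 (chr7:25072796-25072945 and chr7:25072816-25072965). These were centred 224 bp and 244 bp from a TSS of Zfp574, a zinc finger gene that starts beside Grik5, so the site cannot be assigned to either gene. A weaker peak lay at the same place in both replicates, in a Grik5 exon (chr7:25071976-25072125, scores 64 and 58). It was centred 51 bp from a TSS of Grik5 and 517 bp from the TSS of Zfp574. Grik4 had a peak of 30 upstream of its 5′ end in replicate 2 and none in replicate 1.

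NMDA receptors need the subunit encoded by Grin1, and Grin1 was open at its 5′ end. The peak covered the same 150 bp in both replicates (chr2:25319136-25319285), scoring 108 in replicate 1 and 101 in replicate 2, and all 3 of its coding TSSs had a shared region within 1 kb. Of the subunits that bind glutamate, Grin2d was open, and Grin2a, Grin2b and Grin2c had no promoter peak. The Grin2d peaks of 91 in replicate 1 and 89 in replicate 2 lay in an exon, 839 and 919 bp downstream of a coding TSS, and the 5′ end of the gene had no shared region within 4.79 kb. Grin3a and Grin3b, which encode glycine-binding subunits, had no promoter peak in either list. The delta receptor gene Grid1 had none either. Grid2ip had the highest scores of all 53 genes, 142 in replicate 1 and 137 in replicate 2, in a peak of identical position (chr5:143363776-143363925) centred at −58 bp from an internal coding TSS.

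Metabotropic receptors sense glutamate through G proteins, and 2 of their 8 genes were open. Grm4, a receptor of presynaptic terminals, had a single promoter peak of 73 in replicate 1 and 92 in replicate 2, in an intron 673 and 633 bp after its 5′ end. Grm8, of the same group of presynaptic receptors, had peaks of up to 44 in replicate 1 and 53 in replicate 2, all more than 500 bp upstream of its first TSS. Grm2 had peaks of 56 in replicate 1 (centred at −248 bp from its first TSS) and 40 in replicate 2 (centred at −48 bp), which did not overlap. Grm3, Grm5, Grm6 and Grm7 had no promoter peak. The sites of Grm4 and Grm8 thus lay beside the start and did not cover it.

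GABA-A receptors are usually built from alpha, beta and gamma subunits, and Gabra2, Gabra3, Gabra4, Gabra5, Gabra6, Gabrb1, Gabrb2, Gabrg1 and Gabrg3 had no promoter peak in either list. Gabrd, whose subunit replaces gamma in receptors outside synapses, had a peak of 77 in replicate 1 and 63 in replicate 2 at its 5′ end. Gabre, Gabrp and Gabrq and the 3 rho genes, Gabrr1, Gabrr2 and Gabrr3, had none.

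The GABA-B receptor requires both of its subunits, and the promoters of their genes differed. Gabbr1 had peaks of 134 in replicate 1 and 134 in replicate 2 at its 5′ end (chr17:37045916-37046065 and chr17:37045896-37046045), and a second peak 584 bp downstream, beside the TSS of another coding transcript, scored 129 in replicate 1 and 111 in replicate 2. Gabbr2 was called open through a weak site alone, scoring 24 in replicate 1 and 22 in replicate 2. It lay in an intron 133 kb inside the gene, near the start of a transcript annotated as noncoding. The nearest shared region to a coding TSS of Gabbr2 was 9587 bp away, and with coding transcripts only Gabbr2 was not open.

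Of the 5 glycine receptor genes 1 was open, Glra2, with the lowest promoter score of the open members in replicate 1. Glra2 had 2 promoter peaks of 14 and 12 in replicate 1 and 1 peak of 37 in replicate 2, and the shared site was centred about 0.7 kb upstream of its TSS. Glra1, Glra3, Glra4 and Glrb, which encodes the beta subunit that anchors the receptor at synapses, had no promoter peak. Over all families, 6 genes had a shared region centred within 250 bp of a coding TSS, among them Gabbr1, Gabrd, Grik5, Grin1 and Grid2ip. Counted by TSS of protein-coding transcripts, 19 of 139 in the 53 genes had a shared region within 1 kb (13.7%), against 55.9% of 54355 over all protein-coding genes.

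Promoters rich in CpG are generally open across cell types, and most of those of the receptor genes were not open here. Each gene was classed by its coding TSS with the highest observed to expected CpG ratio in the 1 kb around it. Its promoter was called CpG-rich where that ratio was at least 0.6 and the GC content at least 50%. Open still meant a shared region within 1 kb of any TSS of the gene, which need not be the CpG-rich one. By this measure 24 of the 53 genes were CpG-rich (45.3%), against 49.8% of all genes. Of these 24, 7 were open, 29.2% (95% Wilson interval 14.9% to 49.2%), against 87.4% of all genes with a CpG-rich promoter. The 17 without a shared region included Grik3 (ratio 0.929), Grid1 (0.894), Grik4 (0.890), Gabra5 (0.851) and Glrb (0.791). Grin1 (0.975) was open at its CpG-rich TSS. Grm4 (0.952) was open at another TSS. Its CpG-rich TSS is at chr17:27513406, and its promoter peak of replicate 1 lay at chr17:27520656-27520805. Gabbr2 was among the 7 open genes, although the nearest shared region to a coding TSS of it was 9587 bp away. Of the 29 other genes 5 were open (17.2%), against 31.7% of all genes without a CpG-rich promoter. The intervals cover counting error only, and genes are not replicates.

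**Figure D2:**
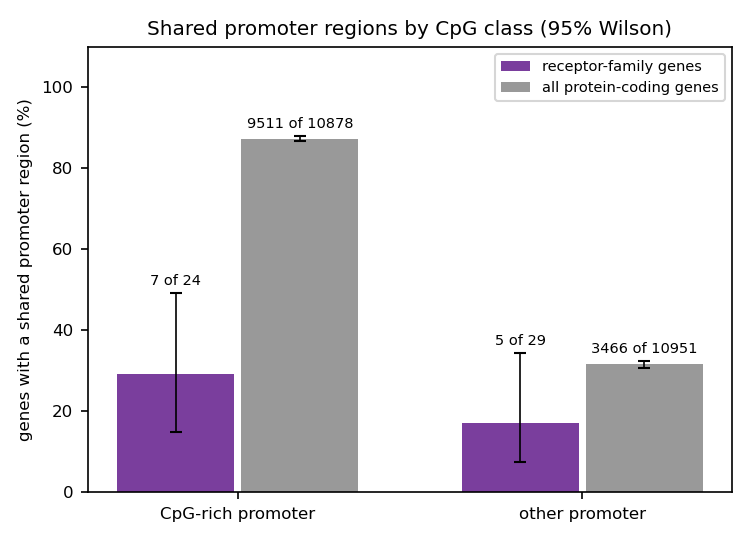
Share of genes with a shared promoter region (vertical axis, percent) by CpG class of the promoter, for the receptor-family genes (purple) and all protein-coding genes (grey), with 95% Wilson intervals and counts. Of genes with a CpG-rich promoter, 29.2% of the receptor-family genes and 87.4% of all genes had a shared region at any of their TSSs.

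Many GABA-A genes lie side by side, and 3 such clusters are described. The cluster of Gabrg1, Gabra2, Gabra4 and Gabrb1 on chromosome 5 held 3 shared regions in 1400 kb, which is 0.215 per 100 kb, and that of Gabre, Gabra3 and Gabrq on X held 1 in 587 kb, or 0.170 per 100 kb. The whole genome had 4.69 per 100 kb. The rho genes Gabrr1 and Gabrr2 on chromosome 4 had no promoter peak but had 7 shared regions in their 101 kb, or 6.96 per 100 kb.

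**Figure D3:**
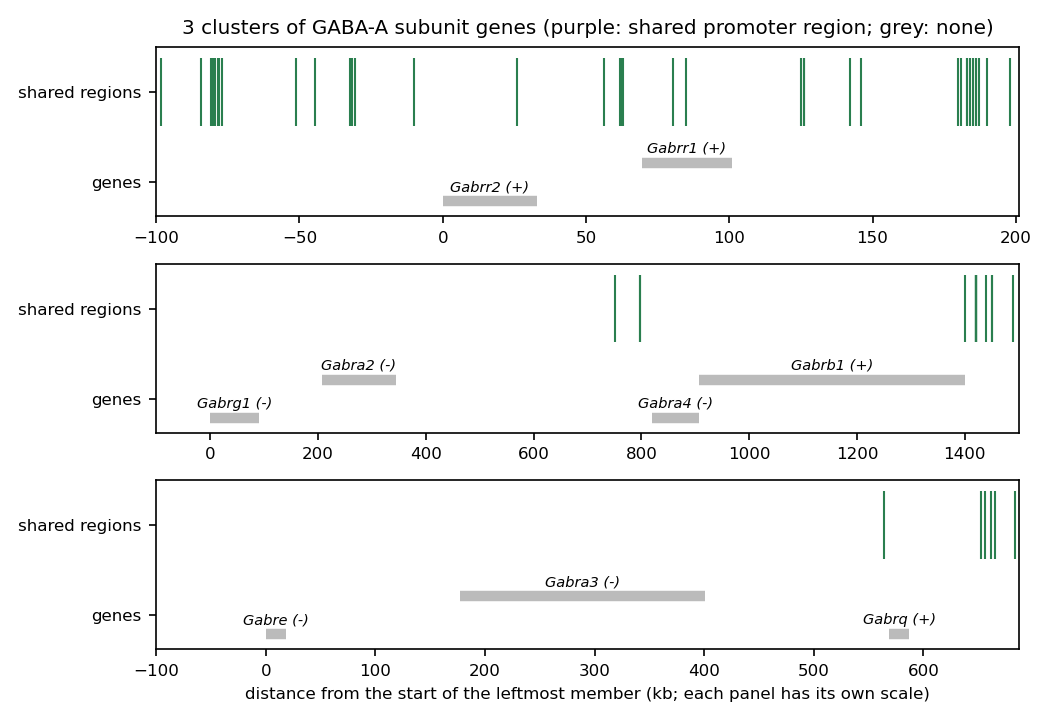
Shared regions (green lines) and genes (bars, purple where a shared promoter region was found and grey where not) in 3 clusters of GABA-A subunit genes. The horizontal axis is the distance in kb from the start of the leftmost member, with 100 kb shown on either side, and the panels are on chromosomes 4, 5 and X from top to bottom. The chromosome 5 cluster has 3 shared regions, that on X has 1 and that on chromosome 4 has 7 between the outer ends of its genes, and no bar is purple.

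Many receptor genes lay in long stretches without open sites. The 5′ end of a receptor gene lay in a stretch without shared regions of 478 kb in the median, against 6.71 kb over all protein-coding genes, and 26 of 53 lay in one of at least 500 kb (49.1%), against 14.7% of all genes. Grin3a lay in one of 2750 kb. Among genes with no open promoter the median was 672 kb for the 41 receptor genes and 196 kb for all 8874. On autosomes 11 of 47 members were open, against 60.8% of autosomal protein-coding genes.

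Distal sites, more than 2.5 kb from any TSS, were also sparse per 100 kb, with a few exceptions. Of the 53 genes 37 had a shared distal region in the gene body or within 50 kb (69.8%), against 79.9% of all protein-coding genes. No interval is given for this share, and by itself it is not read as a difference. Receptor genes are long, with a median of 121 kb against 17.4 kb. Per 100 kb of gene body and flanks the median was 0.817 regions for the receptor genes and 3.30 for all genes. Without replicate 1 it was 1.32 for the receptor genes and 4.37 for all genes, and with the stronger 50% of peaks it was 0 for the receptor genes and 1.26 for all genes. The 16 without any were 10 GABA-A genes together with Grik1, Grik2, Grik4, Grin2a, Grm5 and Glra3. Among genes of at least 100 kb, the 28 receptor genes had a median of 0.0888 distal regions per 100 kb of body, against 2.76 over all 2489, and 17.9% of them had an open promoter, against 65.1% of all genes of that length. In 257 pairs of a gene and a region, 247 different regions occurred, of which 103 pairs lay in introns, 10 in exons and 144 in flanks. Of the flanking pairs 120 had the TSS of another gene as the nearest. The genes on which these regions act are not known.

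Grik3 had the most distal regions of the 53 genes, although its promoter was not open. It had 40 shared distal regions, 27 of them in its body of 223 kb, a density of 12.1 per 100 kb that stood at percentile 94.3 among genes of at least 100 kb. They ran from 10.8 to 213 kb after the 5′ end. Their scores had a median of 73.0 in replicate 1 (range 22 to 125) and of 50 in replicate 2 (range 19 to 116), while the nearest shared region to the TSS was centred 2150 bp away. The strongest distal region inside the body of any member lay in a Grik3 intron, 212 kb from the 5′ end, with scores of 125 in replicate 1 and 116 in replicate 2. Its sequence on the + strand, with CpG in capitals, shows the contrast to the promoter: 2 CpG in 150 bases.
Grik3 intron (chr4:125702996-125703145): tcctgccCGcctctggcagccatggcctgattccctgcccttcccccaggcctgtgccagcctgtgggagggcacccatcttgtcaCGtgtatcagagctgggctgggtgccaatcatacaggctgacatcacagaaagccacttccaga
Grm8 had 13 in its body, the first of them 477 kb after the 5′ end and the last at 830 kb, at 1.51 per 100 kb, below the median for long genes. Grm4 had 10 and Grik5 had 7. Grin2c (23 distal regions in all) and Grin3b (11) owed theirs mostly to their flanks, with 2 and 0 in the body. The 2 highest distal regions near any member, upstream of Grin3b (chr10:79934436-79934625, scores 149 and 144, and chr10:79932856-79933005, scores 145 and 138), were 4.11 kb and 2.51 kb from a TSS of Arid3a. The next lay upstream of Gabbr1, 5.42 kb from a TSS of Mog, the gene of a myelin protein (scores 141 and 136), upstream of Grm4 (137 and 125) and upstream of Grin2c (133 and 118). The rest of the 10 highest were the Grik3 intron site, 2 more beside Arid3a (136 and 113, and 130 and 112), 1 past the end of Grin2c (121 and 111) and 1 more upstream of Grm4 (120 and 107). Grid2ip and Grm2 had 9 distal regions each.

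**Figure D4:**
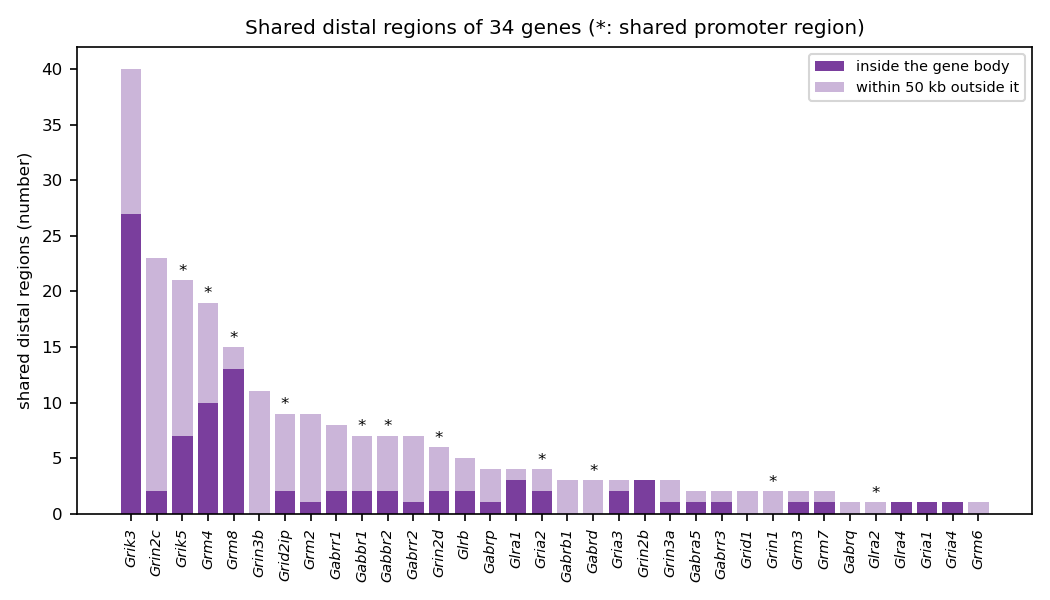
Number of shared distal regions (vertical axis) of 34 of the 37 genes that had any, split into those inside the gene body (dark) and within 50 kb outside it (light). Asterisks mark genes with a shared promoter region. Grik3 has 40, of which 27 lie in its body, and no asterisk.

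Peaks in the receptor gene loci were found again in the other replicate about as often as all peaks. In the 53 loci 69.2% of 705 peaks of replicate 1 (95% Wilson interval 65.7% to 72.5%) and 78.5% of 624 peaks of replicate 2 (75.1% to 81.6%) overlapped a peak of the other list, against 68.7% and 76.7% of all peaks of these lists. The lower percentile of score had a median of 45.0 over the 247 distal regions, against 49.2 over all 76127. Motifs of the distal regions are given beside those of all distal regions. In the 150 bp at the centre, AP-1 sites (TGANTCA) were in 16.6% against 17.5%, CTCF sites (the core pattern, no mismatch) in 13.0% (95% Wilson interval 9.33% to 17.7%) against 9.21%, and NFI palindromes (1 mismatch allowed) in 3.64% against 3.36%. The androgen response element, with 2 mismatches allowed, was in 3.64% of the 247 (95% Wilson interval 1.93% to 6.78%), against 4.17% of all distal regions. Both strands were searched. All of its matches had the 2 mismatches, among them a site 73.6 kb inside Gria2 (chr3:80729275-80729289, scores 47 and 50). That site reads agaacagtttgttct and matched on both strands. Its outer parts, AGAACA and TGTTCT, form an exact inverted repeat, so its mismatches come from the spelling GGTACA in the pattern.

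RE1 matches were frequent at the receptor genes, and their overlap with shared regions is given beside that of all genes. The consensus pattern was searched on both strands with 2 mismatches allowed. A match lay within 1 kb of a TSS in 6 of 53 receptor genes (11.3%), among them Glra1, Glra3, Gria2 and Grin1, against 113 of 21911 protein-coding genes (0.516%). In gene bodies there were 13 matches, 0.991 per Mb, against 0.424 per Mb over all protein-coding genes. Of those 13, 0 lay in a shared region, against 8.16% of the 441 matches in bodies of all genes. With only 13 matches, 0 is near that share, and no difference is read from it. The match in the body of Grm4 lay in a peak of replicate 2 but in none of replicate 1. The matches near the TSSs of Grin1, Gria2 and Glra3 are shown because they differ in what surrounds them. Capitals mark the letters that match the pattern.
Grin1 (chr2:25319014-25319034, − strand): TTCAGCACCtcGGACAGcaCC
Gria2 (chr3:80802989-80803009, + strand): TTtAGCACCgcGGACAGcGCt
Glra3 (chr8:55940760-55940780, − strand): TTCAGCACCtcaGACAGctCC
The Grin1 match, with 1 mismatch, lay 163 bp after the 5′ end, and the nearest peak ended 101 bp from it in both replicates. The Gria2 match, with 2 mismatches, lay inside the peak of 127 of replicate 1 and 123 bp from the nearest peak of replicate 2. The Glra3 match, 310 bp after the 5′ end, was 233714 bp from the nearest peak in replicate 1 and 291595 bp in replicate 2. A match describes letters in the sequence and does not show that REST bound there. Among other motifs of the RefSeq promoters, SP/KLF boxes (GGGCGG) were in 53.3% of 45 receptor windows against 47.8% of 20150, and CCAAT boxes in 42.2% against 37.8%. ETS sites (CCGGAAG) were in 2.22% against 11.9%, NRF1 sites (1 mismatch allowed) in 4.44% against 8.74%, and the CRE (TGACGTCA) in 0 windows against 2.31%.

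Genes that work around the receptors are given as counts, with no test of the difference. Of 40 genes of auxiliary subunits and scaffolds 28 were open (70.0%), against 59.5% of all protein-coding genes. Dlg4, the main scaffold of excitatory synapses, scored 146 in replicate 1 and 134 in replicate 2. Gphn, which encodes gephyrin, the scaffold of inhibitory synapses, scored 146 in replicate 1 and 139 in replicate 2. Dlg2 (147 and 147), Homer1 (145 and 137) and Nlgn2 (148 and 136) were open too, while Cacng2, Shisa6, Neto1 and Cbln1 had no promoter peak. The scores named so far were among the highest of the 28, which also held weak ones such as Grip2 (29 and 26) and Kctd16 (23 and 17). Of 21 genes of transmitter metabolism and transport 9 were open (42.9%, 95% Wilson interval 24.5% to 63.5%). The interval includes the 59.5% of all protein-coding genes, and no difference is read. The 9 open genes included those of the enzymes Glul (149 and 143), Abat (142 and 139), Shmt1, Shmt2 and Srr. Among them were also the transporter genes Slc6a9 and Slc17a7 (73 and 75), and Gad1 (27 and 41), which encodes an enzyme that makes GABA. The vesicular transporter genes Slc17a6, Slc17a8 and Slc32a1 had no promoter peak.

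Other ion channel families are set beside the receptor genes for scale, with no test of the differences. The promoter was open in 32 of 81 potassium channel genes (39.5%), 15 of 20 sodium and calcium channel alpha subunit genes (75%) and 6 of 16 nicotinic receptor genes (37.5%), and the 95% Wilson intervals of these shares were 29.6% to 50.4%, 53.1% to 88.8% and 18.5% to 61.4%. Over all protein-coding genes 59.5% were open. That share lies inside the intervals of the sodium and calcium channel genes and of the nicotinic receptor genes, so no difference from all genes is read there. The median lower percentile of the open promoters of these families was 15.6, 19.6 and 20.1, against 16.1 for the receptor genes and 46.7 over all open protein-coding genes.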

How the data were processed

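DNase-seq peaks and hotspots of 2 biological replicates of MN1 cells, both treated with 10 nM methyltrienolone, were used as 1 group, so no comparison between conditions was possible. Per the listing deposited with each library, the authors derived both kinds of list from that library's alignment to mm10 and 1 further input, without pooling. Neither aligner nor caller is given in the sources used here. Deposited peaks are 150 bp wide, and their score runs over whole numbers from 1 to 150. In the hotspot lists the authors' strength column is a −log10 false discovery rate, and hotspots served as an alternative to peaks. Absence from a list depends on depth and on the caller's threshold, and does not show that DNA was inaccessible.

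Entries listed more than once (15 and 26 in the lists of replicates 1 and 2) entered a single time, and 21 chromosomes were kept. Gene models were those of GENCODE M21. Overlapping peaks of both replicates were merged into 127807 shared regions, of which 76127 were distal. Distal regions were counted by their centre. Genes sharing a symbol were counted once. Sequences came from RefSeq, build GRCm38.p6, and from the genome of that build. Alternatives changed the window, TSSs, overlap, peak strength, replicates, flanks and members. The tools were pandas 2.3.3, pysam 0.24.0, numpy 2.4.6 and scipy 1.17.1 under Python 3.11.15. The call of shared promoter regions and the RE1 search were tested on simulated data, and the other steps were not. Intervals are Wilson intervals at 95% for counting error only.

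The members and lists were chosen with earlier results of these data known. The scores of every member with a promoter peak, the members with most distal regions and the highest distal regions were named by rule. The rule for sequences took the highest promoters and distal regions and the best RE1 match, and of these only Gabbr1, Grin1 and Gria2 are printed. The Grik3 sequences, the Glra3 match, the motifs of distal regions, the stretches without shared regions, the genes of at least 100 kb and the restriction to autosomes were chosen after values were seen. Results for some genes of the lists are not reported here, and the counts include them.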

Additional observations from a re-analysis of the deposited data

How the results depend on the processing

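The number of open receptor genes was within 1.5 times the 12 reported under all alternatives run but a promoter window of 500 bp, where 7 were open, against 57.7% of all genes. Leaving out a replicate gave 13 to 14, the stronger 50% of peaks 8, coding transcripts only 10, hotspots 13 and a window of 2.5 kb 17. With that wider window Glra4, Grik3, Grik4, Grin2c and Grin3b were open too. The share stayed below that of all genes in each of these. The median percentile of the open members, 16.1, was 15.8 with the stronger 50% of peaks and 15.6 without Grid2ip and with coding transcripts only. It was 21.5 with the 500 bp window, 19.9 with the 2.5 kb window and 16.6 on autosomes, and leaving out a replicate gave 16.6 for each. The SD between these last 2 values was 0.0627. Each of them uses the percentile of 1 replicate and not the lower of 2, so this SD does not measure the error of the median of 16.1. The number of genes with a distal region ran from 25 to 44. It was 44 of 53 without replicate 2, against 84.6% of all genes, and 36 of 53 with 20 kb flanks, against 69.2%. With the stronger 50% of peaks it was 25 of 53, against 66.1% of all genes. No difference from all genes is read from these counts. The density of distal regions, 0.817 per 100 kb, was 1.07 to 1.32 with a replicate left out and 0 with the stronger 50% of peaks, against 1.26 over all genes. No paired analysis was possible because there is only 1 group. Genes such as Gabbr1, Gabrd, Grid2ip, Grik5, Grin1 and Grin2d were open under all 9 settings of the promoter call, while Gabbr2, Glra2, Gria2, Grm4 and Grm8 were not under at least 1. The restriction to autosomes was added after seeing the data.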
